A study of Mus musculus with 28 samples.

Results

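Pax7, Pax3, Myf5, Myod1, Myog, Myf6, Mymk and Mymx were followed in tibialis anterior (TA) muscle of 2 mouse models of centronuclear myopathy. They were taken by gene symbol, and all 8 were found among the 55416 genes counted. Their Ensembl identifiers are ENSMUSG00000028736 (Pax7), ENSMUSG00000004872 (Pax3), ENSMUSG00000000435 (Myf5), ENSMUSG00000009471 (Myod1), ENSMUSG00000026459 (Myog), ENSMUSG00000035923 (Myf6), ENSMUSG00000009214 (Mymk) and ENSMUSG00000079471 (Mymx). RNA-seq counts came from 28 mice in 7 groups of 4. In the Dnm2 cohort these were WT mice on placebo, WT mice on a diet with tamoxifen, Dnm2 S619L/+ mice on placebo and Dnm2 S619L/+ mice on tamoxifen. In the Bin1 cohort they were WT mice on placebo, Bin1 mck-/- mice on placebo and Bin1 mck-/- mice on tamoxifen, with no WT group on tamoxifen. Dnm2 S619L/+ mice carry a knock-in point mutation of the GTPase dynamin 2 on 1 allele, and Bin1 mck-/- mice carry a deletion, driven by the muscle creatine kinase (mck) promoter, of the membrane-curving protein Bin1 in muscle. Mice were 8 weeks old and of the C57BL/6N strain, and no label says whether any shared a litter, so p-values measure the spread between these mice. Groups on placebo are called WT, Dnm2 S619L/+ and Bin1 mck-/-, and groups on tamoxifen are called treated.

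Satellite cells are the stem cells of skeletal muscle and lie between the fiber and its sheath. The transcription factor Pax7 marks and maintains them, and its paralog Pax3 acts mainly in the embryo and in the satellite cells of some muscles. When satellite cells are activated, Myf5 and Myod1 commit them to the muscle lineage, Myog (myogenin) drives differentiation, and the membrane proteins Mymk (myomaker) and Mymx (myomixer) let myoblasts fuse into fibers. Myf6 (MRF4) is the member of the same basic helix-loop-helix family that adult fibers keep expressing, and Myog is known to return in fibers that lose their nerve.

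Reads counted on genes ranged from 15586333 to 109710886 per mouse in the Dnm2 cohort and from 24671835 to 35136327 in the Bin1 cohort. RNA input was 300 ng in the Dnm2 cohort and 350 ng in the other, and RNA was fragmented for 2 and 8 min, so model and protocol cannot be told apart and tests stayed within a cohort. Bin1 was at 539.9 ± 15.7 CPM (read count scaled to the normalised size of the library; SD, n = 4) in WT mice of the Bin1 cohort and at 56.2 ± 5.1 and 40.9 ± 6.16 in Bin1 mck-/- and treated Bin1 mck-/- mice, as the labels have it. Dnm2 was at 63.1 ± 1.45 CPM in WT and 67.6 ± 4.64 in Dnm2 S619L/+ mice, and this level cannot check a point mutation. Muscle identity was plain in every library, with 6 fiber markers, among them Acta1, Ckm and Myh4, summing to at least 68100 CPM. The 6 bone markers summed to 779 to 1850 CPM in treated WT mice and 18.3 to 1390 in treated Dnm2 S619L/+ mice, against 1.34 to 2.78 in both placebo groups. In the Bin1 cohort they were at 0.11 to 2.28 CPM in all but 1 treated Bin1 mck-/- mouse, which had 494.

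Levels between genes were compared per kilobase of exon. In WT mice Myf6 was far above the others, at 50.5 CPM per kb in the Dnm2 cohort and 49.3 in the Bin1 cohort. Myod1 followed at 5.58 and 12.8 CPM per kb, and Myog at 3.07 and 3.85. Pax7 was at 0.974 and 0.995, Mymk at 0.619 and 0.633, Myf5 at 0.593 and 0.454 and Pax3 at 0.123 and 0.093. Mymx was close to absent, at 0.0133 and 0.0147 CPM per kb. A lower level can mean fewer cells of a type or less RNA per cell, which cannot be told apart here.

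**Figure D1:**
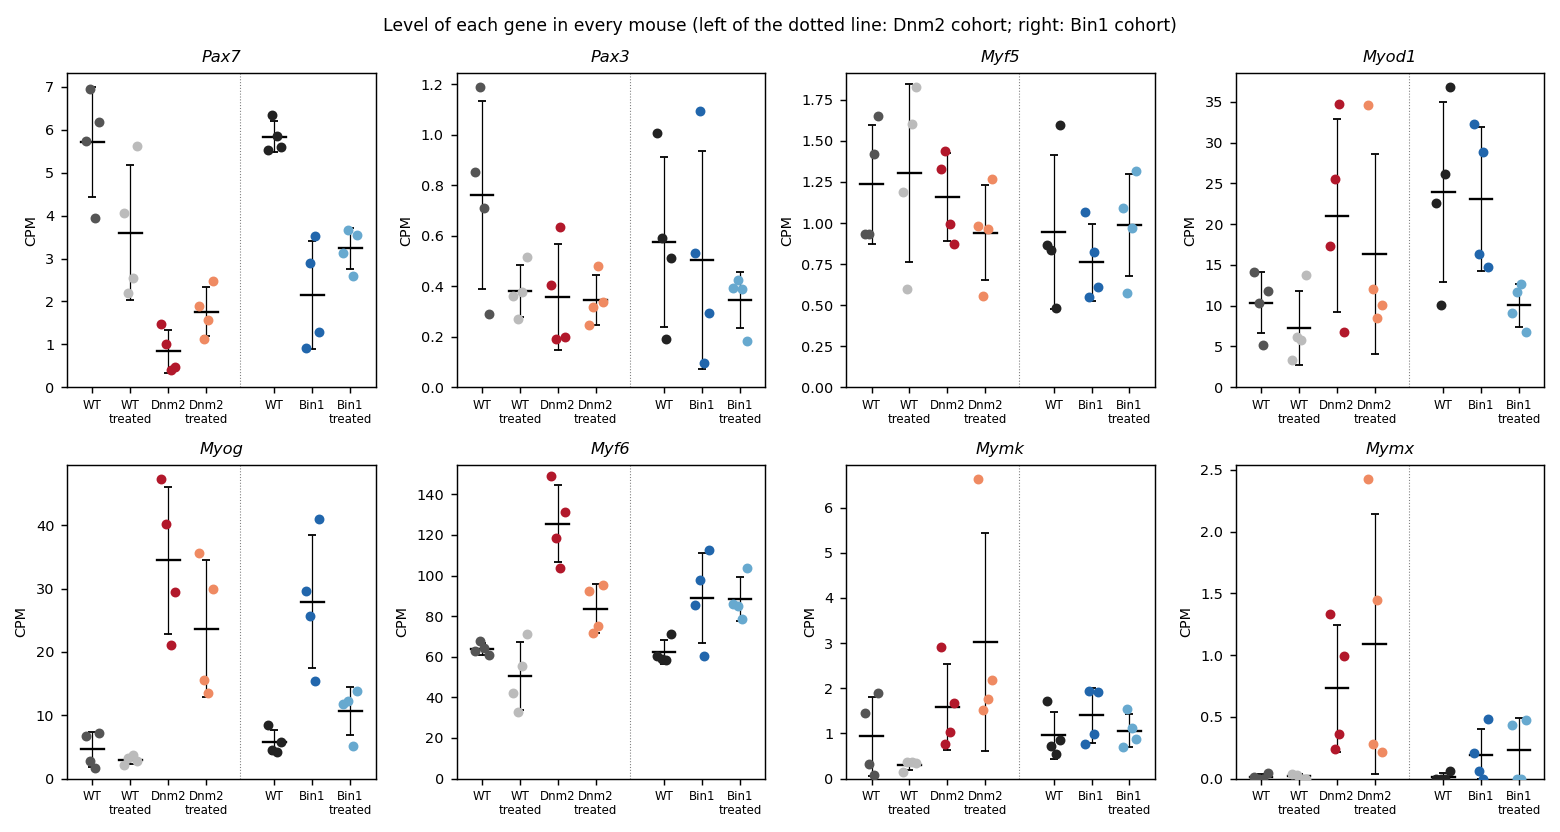
Level in CPM of the 8 genes in each mouse, 1 panel per gene with its own linear axis from 0. Points are mice, bars are group means and whiskers are 1 SD, cut at 0; Dnm2 stands for Dnm2 S619L/+ and Bin1 for Bin1 mck-/-. Pax7 is lower and Myog higher in every placebo disease mouse than in every placebo WT mouse of its cohort.

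The first comparison asked how the genes differ between placebo disease and WT mice. Pax7 fell in both models. In the Dnm2 cohort its level was 5.74, 6.96, 3.95 and 6.19 CPM in the 4 WT mice and 1.47, 1.01, 0.407 and 0.475 CPM in the 4 Dnm2 S619L/+ mice. The groups did not overlap, and the Dnm2 S619L/+ mice had 7.13% to 25.7% of the WT mean. The log2 fold change was -2.65 ± 0.39 (SE; edgeR quasi-likelihood test, adjusted p = 0.000317). WT mice of the Bin1 cohort had 5.54, 6.33, 5.86 and 5.60 CPM and the Bin1 mck-/- mice 0.917, 2.90, 3.51 and 1.28 CPM. Again the groups did not overlap, with 15.7% to 60.2% of the WT mean in Bin1 mck-/- mice and a log2 fold change of -1.42 ± 0.32 (edgeR, adjusted p = 0.0345). The call in the Bin1 cohort was lost when any of 7 single mice was left out (Bin1 mck-/- mouse 1, 2 or 4, or any WT mouse), with adjusted p up to 0.114, while in the Dnm2 cohort it held in all 23 other fits. Endothelial markers moved with Pax7 in Dnm2 S619L/+ mice, where 3 of 4 fell and 9.81% of all genes did. The sum of the 4 was 134 to 405 CPM against 313 to 624 in WT, with none at 0. In Bin1 mck-/- mice 0 of these 4 passed the test, where 2.61% of all genes did, and the sum was 303 to 432 against 393 to 475 CPM. Markers of macrophages and leukocytes moved the other way. In Bin1 mck-/- mice 4 of 5 rose, where 1.99% of all genes did, with sums of 46.6 to 94.9 against 13 to 20.2 CPM. In Dnm2 S619L/+ mice 2 of 5 rose, where 12.1% of all genes did, with sums of 24.4 to 107 against 18.1 to 30.4 CPM. The part of either set in the fall of Pax7 was not tested.

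Myog rose in both models. It was at 6.64, 2.80, 1.74 and 7.19 CPM in the WT mice of the Dnm2 cohort and at 47.3, 40.1, 21.1 and 29.4 CPM in Dnm2 S619L/+ mice. Every Dnm2 S619L/+ mouse was well above the highest WT mouse, with a log2 fold change of 2.83 ± 0.42 (edgeR, adjusted p = 0.000391). The WT mice of the Bin1 cohort had 8.50, 4.56, 4.26 and 5.73 CPM of Myog and the Bin1 mck-/- mice 29.6, 25.6, 15.5 and 40.9 CPM. The groups were again apart, with a log2 fold change of 2.26 ± 0.36 (edgeR, adjusted p = 0.0135). Without WT mouse 6 or WT mouse 8 the adjusted p was 0.0618 or 0.0535, and the number of all genes called fell from 388 to 26 or 18. Markers of denervated fibers (Chrng, Chrnd, Chrna1, Ncam1, Runx1 and Gadd45a) moved with Myog between placebo disease and WT mice. In Dnm2 S619L/+ mice 6 of these 6 rose, where 12.1% of all genes did. Their sum was 138 to 334 CPM against 57.7 to 69.6 in WT. In Bin1 mck-/- mice 2 of the 6 rose, where 1.99% of all genes did, with sums of 69.5 to 185 against 64.4 to 80 CPM. In treated against placebo WT mice 2 of the 6 rose and 2 fell, where 15.8% and 11.9% of all genes did. There the sum was 77.2 to 105 CPM in treated mice, while Myog was at 2.96 ± 0.67 CPM against 4.59 ± 2.73. None of the 6 was at 0 in any group, and their part in the rise of Myog was not tested.

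The sequence before the Myog start is shown because Myog rose in both models and its promoter is known to be driven through E-boxes, the sites of the myogenic factors, and a site for MEF2 factors. The RefSeq promoter table (GRCm38.p6) held entries for Myog, Pax7 and Myf5. The 250 bases before the Myog start lie at chr1:134289754-134290003 on the plus strand, and capitals mark matches to CANNTG (E-box, the same on both strands) and to CTANNNNTA (MEF2-like letters, searched on both strands). These motifs were chosen with the sequence in view.
Myog: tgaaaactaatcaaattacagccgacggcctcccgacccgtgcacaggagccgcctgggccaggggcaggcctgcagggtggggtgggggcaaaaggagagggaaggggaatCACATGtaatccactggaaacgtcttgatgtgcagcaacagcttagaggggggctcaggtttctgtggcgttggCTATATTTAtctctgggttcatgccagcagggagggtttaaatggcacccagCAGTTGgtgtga
E-boxes began 138 and 12 bases before the start, and the MEF2-like letters 64 bases before it, with no overlap between motifs. Of 32851 promoters, 66.2% held CANNTG and 19% CTANNNNTA in the same window. The same windows of Pax7 and Myf5 held no CANNTG, and that of Myf5 held CTANNNNTA. A match describes letters only, and binding was not measured.

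Myf6 rose in Dnm2 S619L/+ mice. It was at 62.7, 67.5, 64.4 and 60.8 CPM in WT and at 148.9, 118.3, 103.9 and 131.2 CPM in Dnm2 S619L/+ mice. All 4 stood above the WT mice, whose values lay close together (SD 2.86 CPM), and the log2 fold change was 0.98 ± 0.19 (edgeR, adjusted p = 0.00214). Myf6 in the Bin1 cohort was at 58.4 to 71.1 CPM in WT and at 85.7, 97.7, 60.3 and 112.6 CPM in Bin1 mck-/- mice. In 1 Bin1 mck-/- mouse the level lay inside the WT range, and the difference did not pass the test (0.52 ± 0.16, edgeR, adjusted p = 0.0845). Without that mouse, mouse 3, the adjusted p was 0.012, and DESeq2 with all mice gave 0.0438.

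Mymx, the fusion peptide, was seen almost only in disease mice. In the Dnm2 cohort 1, 0, 0 and 2 reads were counted on it in WT and 59, 5, 8 and 25 in Dnm2 S619L/+ mice. Each Dnm2 S619L/+ mouse thus had more reads than any WT mouse, although the largest library was a WT one. By CPM ratio the level was 55-fold higher (95% exact interval 18.3 to 271, counting error only). Mymx passed the test (edgeR, adjusted p = 0.00285). Only its reads in Dnm2 S619L/+ mice brought it past the filter on low counts, as no WT or treated WT mouse of the cohort had more than 2. Among mice of the Bin1 cohort it had 0, 0, 0 and 2 reads in WT and 7, 2, 0 and 18 in Bin1 mck-/- mice, a ratio of 13 (3.26 to 113). Here Mymx was below the filter on low counts, and an exact two-sided permutation test on log2(CPM + 1) gave p = 0.143 with 4 mice a group, where 0.0286 is the smallest p possible. Mymk, its partner, was at 1.45, 0.311, 0.0791 and 1.90 CPM in WT and 2.91, 0.768, 1.04 and 1.66 in Dnm2 S619L/+ mice. The groups overlapped and the log2 difference of 0.65 ± 0.63 did not pass the test (edgeR, adjusted p = 0.482).

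The early factors did not pass the test with all mice in either model. Myod1 was at 5.22 to 14.2 CPM in WT and 6.73 to 34.7 CPM in Dnm2 S619L/+ mice (log2 0.99 ± 0.54, edgeR, adjusted p = 0.197). Across the Bin1 cohort it ranged from 10.02 to 36.8 CPM in WT and from 14.7 to 32.3 in Bin1 mck-/- mice (log2 -0.05 ± 0.38, edgeR, adjusted p = 0.957). Mice of 1 group thus differed several-fold in Myod1, more than the group means did. Myf5, which lies next to Myf6 on chromosome 10, was at 1.24 ± 0.36 CPM in WT and 1.16 ± 0.27 in Dnm2 S619L/+ mice, and at 0.945 ± 0.47 and 0.762 ± 0.23 in WT and Bin1 mck-/- mice. Pax3 was at 0.761 ± 0.37 and 0.357 ± 0.21 CPM in the Dnm2 cohort (log2 -0.97 ± 0.40, edgeR, adjusted p = 0.0889) and at 0.576 ± 0.34 and 0.504 ± 0.43 in the Bin1 cohort. In the Dnm2 cohort Pax3 passed without Dnm2 S619L/+ mouse 3 or WT mouse 4, with edgeR adjusted p of 0.0354 and 0.0253. In all, 4 of 8 genes passed the test between Dnm2 S619L/+ and WT mice, where 21.9% of all 15439 genes tested passed. Mymx is 1 of these 4, and it was tested only because of its reads in Dnm2 S619L/+ mice. Between Bin1 mck-/- and WT mice 2 of the 7 tested passed, where 2.61% of all 14841 genes did.

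**Figure D2:**
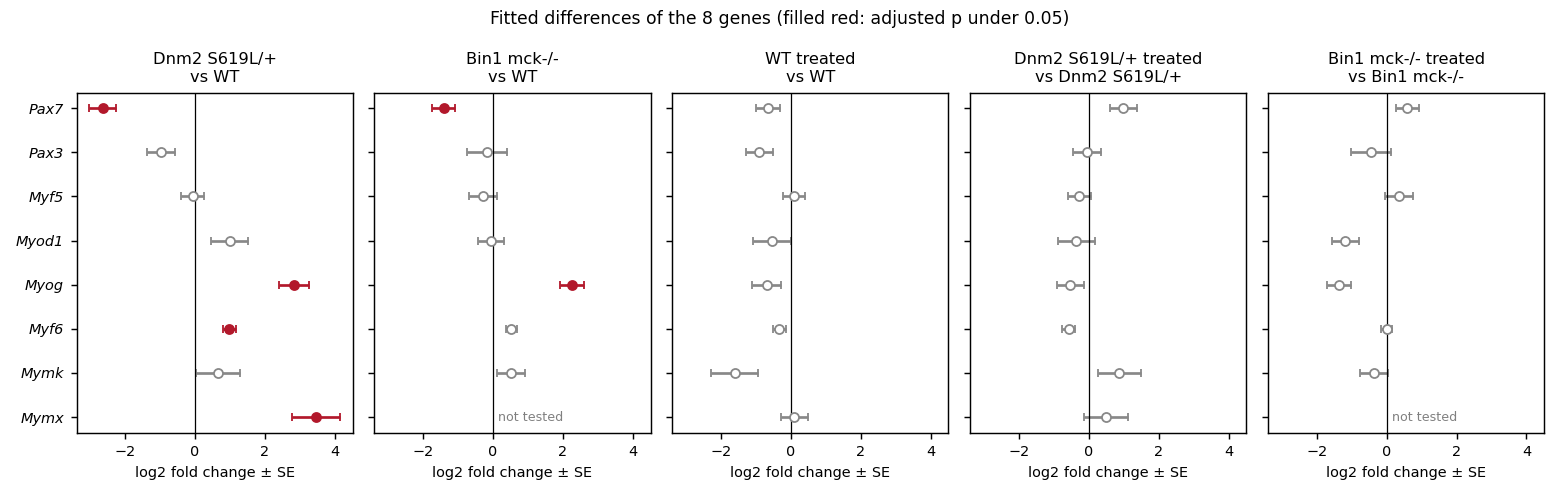
Log2 fold change and SE (x axis) of the 8 genes (y axis) in 5 comparisons, 1 panel each. Filled red points have adjusted p under 0.05. Pax7 and Myog are the pair past the threshold in both models, in opposite directions, and no point is filled in the 3 panels of treatment.

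The next comparison asked what tamoxifen changed within a genotype. Comparisons with placebo disease mice share those mice with the comparisons above. None of the 8 genes passed the test between treated and placebo WT mice, where 27.7% of all genes passed. At an unadjusted p under 0.05 there were 2 (Pax3 and Mymk), where 6216 of all 15439 genes were, and DESeq2 called 0. Mymk had the largest difference, at 0.141, 0.360, 0.377 and 0.345 CPM in treated WT mice, with the highest of these above the 2 lowest of the 4 WT mice (log2 -1.61 ± 0.67, edgeR, adjusted p = 0.085). Pax7 was at 4.06, 2.19, 2.54 and 5.63 CPM in treated WT mice (log2 -0.66 ± 0.36, edgeR, adjusted p = 0.177). Leaving out 1 mouse brought 1 gene past the threshold in 3 cases: Mymk without WT mouse 3, Pax3 without WT mouse 4 and Myf6 without treated WT mouse 4, with edgeR adjusted p of 0.0478, 0.0251 and 0.0264.

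In Dnm2 S619L/+ mice 0 of the 8 genes passed between treated and placebo mice, where 8.27% of all genes passed. At an unadjusted p under 0.05 there were 2 (Pax7 and Myf6), where 3927 of all 15439 genes were. DESeq2 called 1, Myf6, and 1870 of all genes. Pax7 was at 1.90, 1.12, 1.57 and 2.47 CPM in treated Dnm2 S619L/+ mice. Each of these was below the lowest WT mouse, and 3 were above the highest placebo Dnm2 S619L/+ mouse (log2 0.99 ± 0.38, edgeR, adjusted p = 0.122). Without placebo mouse 1, the highest of its group, the adjusted p was 0.0463. Myf6 was at 92.6, 71.7, 75.0 and 95.5 CPM in treated mice. All 4 lay below the placebo Dnm2 S619L/+ mice and above the placebo WT mice (log2 -0.59 ± 0.19, edgeR, adjusted p = 0.0637). Myf6 passed without placebo mouse 3, treated mouse 4, or treated WT mouse 2 or 4, with adjusted p down to 0.0303. Myog stayed at 35.6, 15.6, 13.5 and 29.9 CPM, overlapping the placebo disease mice (log2 -0.54 ± 0.39, edgeR, adjusted p = 0.414).

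In Bin1 mck-/- mice 0 of the 7 genes tested passed between treated and placebo mice, where 3.13% of all genes passed. At an unadjusted p under 0.05 there were 2, Myog and Myod1, where 3068 of all 14841 genes were. DESeq2 called both, and 1166 of all genes. Myog was at 11.8, 12.2, 5.20 and 13.8 CPM in treated mice, all below the lowest placebo Bin1 mck-/- mouse (log2 -1.37 ± 0.34, edgeR, adjusted p = 0.054). Myod1 was at 9.11, 11.7, 12.6 and 6.76 CPM, also below the lowest placebo disease mouse (log2 -1.19 ± 0.39, edgeR, adjusted p = 0.117). DESeq2 gave adjusted p of 0.000616 for Myog and 0.00768 for Myod1. Of the 6 markers of denervated fibers 2 fell in this comparison, where 1.61% of all genes fell. The sum of the 6 was 66.2 to 130 CPM in treated mice, and their part was not tested. Pax7 was at 3.14, 3.67, 2.60 and 3.55 CPM, between the other 2 groups on average (log2 0.58 ± 0.32, edgeR, adjusted p = 0.318), and Myf6 was at 88.3 ± 10.8 CPM, close to the 89.1 ± 22.1 of placebo Bin1 mck-/- mice.

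Treated disease mice were also set beside WT mice, which these comparisons share with those above. Against placebo WT, 3 of 8 genes passed in treated Dnm2 S619L/+ mice, where 28.9% of all genes did. Pax7 was lower (log2 -1.67 ± 0.37, edgeR, adjusted p = 0.00413), Myog was higher (2.29 ± 0.41, adjusted p = 0.00125), and Mymx was higher, with 79, 7, 36 and 7 reads a CPM ratio of 71.6 (95% exact interval 23.9 to 352; edgeR, adjusted p = 0.00112). DESeq2 also called Mymk here (adjusted p = 0.0452, against 0.0808 by edgeR). Against treated WT mice 4 genes passed, where 2.7% of all genes did, and all were higher: Myog (2.99 ± 0.43, edgeR, adjusted p = 0.00176), Mymx (CPM ratio 49.8, 16.7 to 245; edgeR, adjusted p = 0.00904), Mymk (3.14 ± 0.70, adjusted p = 0.0246) and Myf6 (0.73 ± 0.19, adjusted p = 0.0484). For Mymk the treated Dnm2 S619L/+ mice had 6.62, 1.51, 1.77 and 2.19 CPM, and without the highest of them, mouse 1, the adjusted p was 0.102, as it was 0.103, 0.0723 or 0.0604 without treated WT mouse 1, 2 or 3. The call of Myf6 was lost in 15 of 23 other fits. Mymx is counted in both comparisons, and it was tested only because of its reads in Dnm2 S619L/+ mice. The difference of the tamoxifen effect between the genotypes was tested as an interaction, which 0 of 8 genes passed, where 0.259% of all genes did. At an unadjusted p under 0.05 there were 2 of the 8, where 2089 of all 15439 genes were. The 2 were Pax7 (log2 1.65 ± 0.52, edgeR, adjusted p = 0.202) and Mymk (2.49 ± 0.91, adjusted p = 0.272), and DESeq2 called 0. Treated Bin1 mck-/- mice had 0 of 7 genes past the threshold against WT, where 0.849% of all genes passed. At an unadjusted p under 0.05 there were 4, where 2205 of all 14841 genes were. DESeq2 called 1, Myod1, and 521 of all genes. In these mice Pax7 remained below every WT mouse (log2 -0.83 ± 0.32, edgeR, adjusted p = 0.247) and Myog overlapped WT (0.89 ± 0.35, adjusted p = 0.269).

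**Figure D3:**
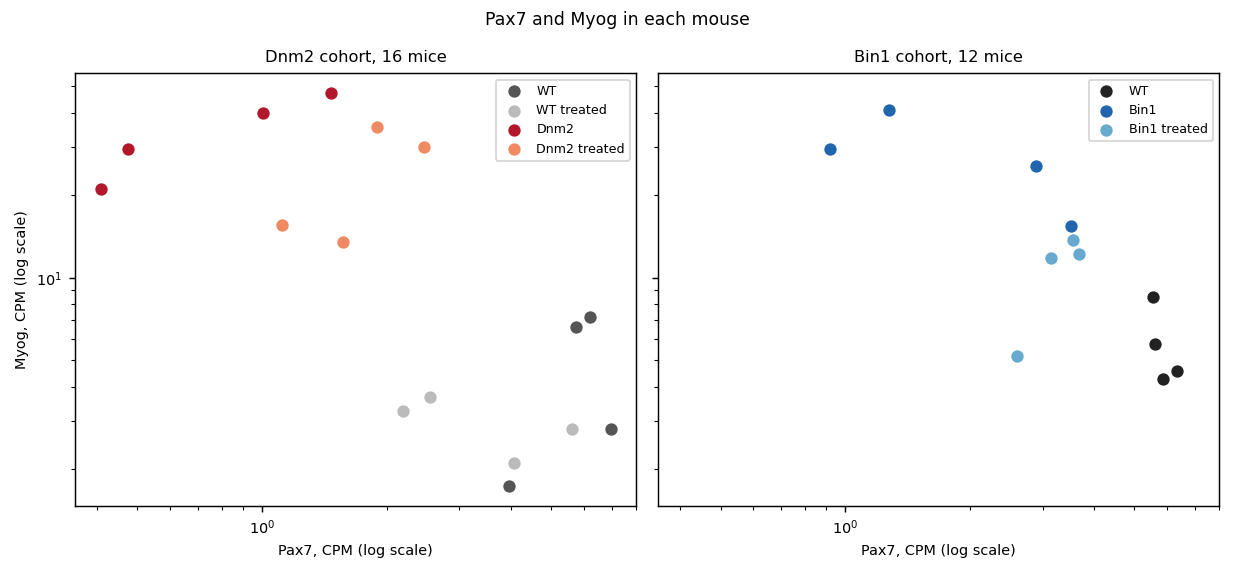
Pax7 (x axis) and Myog (y axis) in CPM, both on log scales, in each of the 16 mice of the Dnm2 cohort and the 12 of the Bin1 cohort. Placebo disease mice are at upper left and WT mice at lower right, and the treated Bin1 mck-/- group has mean levels between those of the other groups of its cohort.

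Across all mice of a cohort, log2 levels of Pax7 and Myog were inversely related (Pearson r = -0.696 over 16 mice and -0.802 over 12). Within groups, after each group's mean was taken out, r was 0.441 and -0.332, so within groups the sign differed between the cohorts. Myog and Mymk went together within groups, with r = 0.866 in the Dnm2 cohort and 0.393 in the Bin1 cohort. Treated Dnm2 S619L/+ mouse 1 was the highest of its group in Myod1, Myog, Mymk and Mymx at once, at 34.6, 35.6, 6.62 and 2.42 CPM. Mice of a cohort share library protocol and, within a group, treatment, and these correlations are descriptions.

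The gene most like Pax7 was Fgfr4, a fibroblast growth factor receptor of satellite cells. Likeness was the lower of the correlations over the 16 and the 12 mice, among 14565 genes tested in both cohorts, and for Fgfr4 it was 0.862 (0.635 and 0.899 within groups in the Dnm2 and the Bin1 cohort). Cep295 (0.761) and Emid1 (0.758) came next, and their lower correlations within groups were 0.388 and -0.106. For Myog the genes most like it were 1810058I24Rik (0.931), Nfkb2 (0.930), an NF-kappaB subunit, and Ttc9 (0.928). Their lower correlations within groups were 0.724, 0.456 and 0.723. For Myf6 the genes were the fiber genes Cav3 (0.899), the muscle caveolin, Mlip (0.884) and Des (0.883), desmin (0.567, 0.644 and 0.55 within groups). For Myod1 they were Irf2bpl, Cxxc5 and Sppl2b (0.765 to 0.800), for Mymk Rb1, Cidea and Nhlrc2 (0.659 to 0.726), for Myf5 Dnajc12, Dram2 and Cisd2 (0.671 to 0.689), and for Pax3 Pon3, Cdkl1 and A130014A01Rik (0.631 to 0.692). Within groups the likeness to Mymk was 0.336 for Rb1, -0.017 for Cidea and 0.586 for Nhlrc2. Nfkb2 was at 11.5 ± 1.03, 40.9 ± 7.99 and 28.7 ± 3.61 CPM in WT, Dnm2 S619L/+ and treated Dnm2 S619L/+ mice, and at 14.2 ± 1.56, 39.2 ± 8.84 and 25.6 ± 8.98 CPM in the 3 groups of the Bin1 cohort.

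Other genes of satellite cells were read from a list of 18 surface and quiescence genes. In Dnm2 S619L/+ against WT mice 5 fell and 1 rose (median log2 -0.71, against 0.02 over all genes tested, of which 9.81% fell and 12.1% rose). The 3 with the smallest p were Fgfr4, Calcr and Chrdl2. The summed level of the list was 358 to 400 CPM in Dnm2 S619L/+ and 346 to 438 in WT mice, and these ranges overlapped. A sum over 8 satellite cell markers, Pax7 among them, did not fall. It was 192 to 270 CPM (median 258) in Dnm2 S619L/+ and 155 to 203 (median 172) in WT mice. Of the 8, Pax7 was at 5.71 and Calcr at 1.04 CPM on average in WT mice, a small part of the sum. More abundant genes carry it, so it cannot show a fall of these genes or the number of satellite cells. Calcr, the calcitonin receptor, is known to keep satellite cells quiescent and is also made by osteoclasts, and Chrdl2 is a secreted inhibitor of BMP. Chrdl2 was at 2.46 ± 0.542 CPM in WT, 0.287 ± 0.18 in Dnm2 S619L/+ and 0.643 ± 0.275 in treated Dnm2 S619L/+ mice. It was also lower in treated than in placebo WT mice, at 0.878 ± 0.269 CPM (log2 -1.44, edgeR, adjusted p = 0.0111). In Bin1 mck-/- mice the 8 markers summed to 230 to 327 CPM (median 280) against 213 to 260 (median 228) in WT. Of the 18 genes 2 fell there, Fgfr4 and Calcr (list median -0.23, against 0.01), where 0.627% of all genes fell. Under tamoxifen these same 2 genes rose in both disease models: of the 18 genes, 4 rose and 0 fell in treated Dnm2 S619L/+ mice, and 2 rose and 0 fell in treated Bin1 mck-/- mice, where 5.22% and 1.52% of all genes rose. In treated WT mice 6 of the 18 rose and 2 fell, where 15.8% of all genes rose and 11.9% fell. Neither Fgfr4 nor Calcr passed the test there.

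Fgfr4 was at 5.88, 3.40, 2.69 and 5.61 CPM in WT, 0.586, 0.480, 0.407 and 0.0792 in Dnm2 S619L/+ and 4.72, 1.40, 2.13 and 3.06 in treated Dnm2 S619L/+ mice. No placebo Dnm2 S619L/+ mouse reached either other group (log2 -3.31 ± 0.46 for disease, edgeR, adjusted p = 0.000201, and 2.67 ± 0.45 for treatment, adjusted p = 0.00378). Across the Bin1 cohort Fgfr4 was at 6.02 to 6.96 CPM in WT, 1.01, 2.77, 3.42 and 1.65 in Bin1 mck-/- and 5.93, 5.37, 6.32 and 5.30 in treated mice. Treated mice lay above all placebo disease mice (log2 -1.53 ± 0.28 for disease and 1.35 ± 0.28 for treatment, edgeR, adjusted p = 0.0136 and 0.019). Only the highest treated mouse, at 6.32 CPM, was inside the WT range, and the others lay below every WT mouse. Pax7 of all these treated mice lay below every WT mouse. The call for disease in the Bin1 cohort was lost without Bin1 mck-/- mouse 4 or WT mouse 6 or 8, with adjusted p up to 0.0549. The call for treatment was lost in 1 of 23 other fits in the Dnm2 cohort and 4 of 19 in the Bin1 cohort, with adjusted p up to 0.0656 and 0.0805.

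Calcr rested on few reads. In the Bin1 cohort it had 17, 21, 14 and 15 reads in WT, 0, 3, 0 and 0 in Bin1 mck-/- and 9, 30, 25 and 15 in treated mice. By CPM ratio, WT was 23.2-fold (95% exact interval 7.61 to 115) and treated 32.4-fold (10.7 to 160) above placebo Bin1 mck-/- mice (edgeR, adjusted p = 0.0186 and 0.009). In the Dnm2 cohort it had 86, 31, 16 and 52 reads in WT, 2, 1, 2 and 0 in Dnm2 S619L/+ and 6, 13, 19 and 3 in treated mice (edgeR, adjusted p = 0.000427 and 0.0233). Bone markers rose with treatment in the Dnm2 cohort: 5 of 6 did in WT and in Dnm2 S619L/+ mice, where 15.8% and 5.22% of all genes rose. The treated Dnm2 S619L/+ mouse with 18.3 CPM of bone markers had 0.0926 CPM of Calcr, and the mouse with 1390 CPM had 0.762 CPM. Treated WT mice 1 to 4 had 1630, 1850, 779 and 860 CPM of bone markers and 2.05, 2.79, 1.22 and 1.21 CPM of Calcr. In the Bin1 cohort the 3 treated mice with 0.11 to 1.92 CPM of bone markers had 0.392, 0.970 and 0.548 CPM of Calcr. The maximum in placebo Bin1 mck-/- mice was 0.0966 CPM. The part of bone cells in the level of Calcr was not tested. The calls were lost in 6 of 22 other fits (treatment, Dnm2 cohort), 1 of 19 (treatment, Bin1 cohort) and 4 of 18 (disease, Bin1 cohort), with adjusted p up to 0.0931, 0.0586 and 0.0803.

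**Figure D4:**
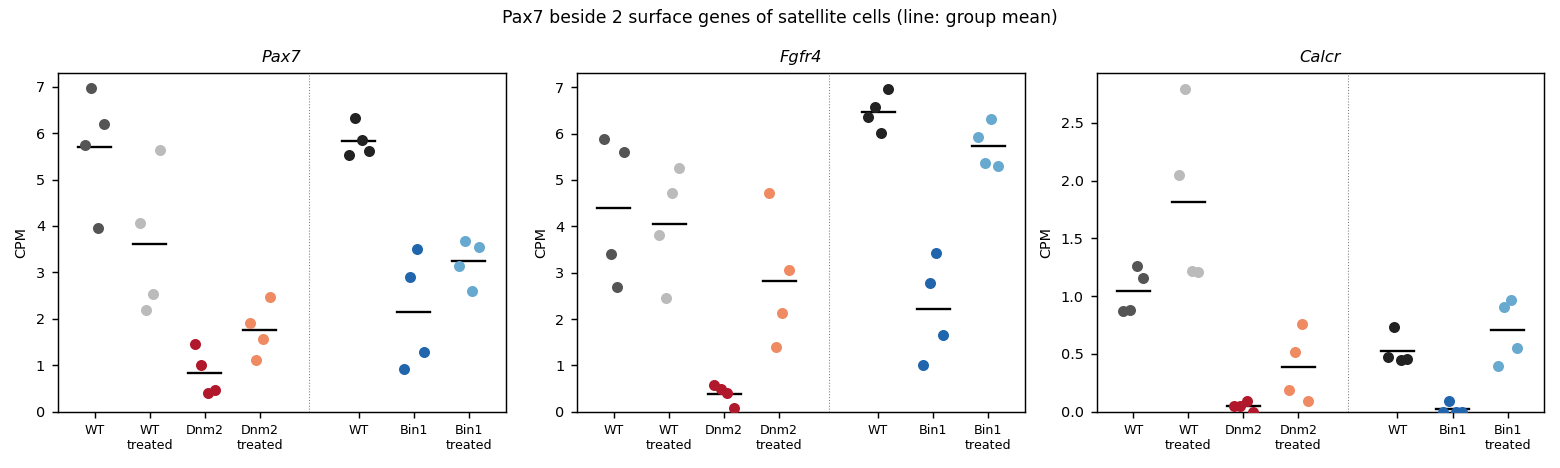
Level in CPM of Pax7, Fgfr4 and Calcr in each mouse, on linear axes from 0, with lines at group means. Bin1 stands for Bin1 mck-/- and Dnm2 for Dnm2 S619L/+. All 3 are lower in placebo disease than in WT mice, and Fgfr4 and Calcr are higher again in treated disease mice. Fgfr4 and Calcr were drawn because they show this pattern, and the other genes of the list of 18 are not drawn.

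A list of 22 partners and inhibitors of the myogenic factors had 4 genes that rose and 2 that fell in Dnm2 S619L/+ mice, where 21.9% of all genes were called. Mstn (myostatin), the muscle-made brake on growth, fell in both models, from 48.4 ± 7.82 to 14.6 ± 3.92 CPM in the Dnm2 cohort (log2 -1.73 ± 0.23, edgeR, adjusted p = 0.000154) and from 22.1 ± 3.11 to 10.4 ± 3.52 CPM in the Bin1 cohort (-1.08 ± 0.26, adjusted p = 0.049), where the call was lost in 9 of 18 other fits. It rose in treated Bin1 mck-/- mice, to 26.1 ± 9.77 CPM (1.33 ± 0.26, edgeR, adjusted p = 0.0207), a call lost in 4 of 19 fits. In treated Dnm2 S619L/+ mice Mstn was at 19.5 ± 3.64 CPM, and all of these mice (16.7 to 24.8 CPM) lay below every WT mouse (38.2 to 57.3 CPM). Mdfi, an inhibitor of MyoD-family factors, rose in Dnm2 S619L/+ mice from 0.24 ± 0.19 to 1.12 ± 0.26 CPM (log2 1.80 ± 0.45, edgeR, adjusted p = 0.0106). In treated WT mice 6 of 22 rose and 0 fell, where 15.8% of all genes rose, among them Mdfi (2.96 ± 0.45, edgeR, adjusted p = 0.000463) and Twist1 (3.05 ± 0.47, adjusted p = 0.000507), a mesenchymal repressor of the myogenic factors. In treated Dnm2 S619L/+ mice 3 rose, with Mdfi and Twist1 among them, calls lost in 16 and 10 of 23 other fits. Bone markers moved with them: the treated Dnm2 S619L/+ mouse with 18.3 CPM of bone markers had 0.988 CPM of Mdfi and 1.3 of Twist1, and the 3 with 562 to 1390 CPM had 3.19 to 4.57 and 5.92 to 9.63. Their part was not tested.

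Of 14 genes of regenerating or new fibers, 7 rose and 0 fell in Dnm2 S619L/+ mice (median log2 0.75), where 12.1% of all genes rose, and 1 of 14 rose in Bin1 mck-/- mice, where the median was 0.65 and 1.99% of all genes rose. Cdkn1a (p21), the inhibitor by which myoblasts leave the cell cycle, was at 13.0 to 31.7 CPM in WT and 105 to 204 CPM in Dnm2 S619L/+ mice (log2 3.09 ± 0.33, edgeR, adjusted p = 3.49e-05). Myl4, the embryonic myosin light chain, went from 5.31 ± 1.83 to 26.9 ± 7.58 CPM (2.31 ± 0.32, adjusted p = 0.000259). Both genes were also higher in treated than in placebo WT mice. Cdkn1a was at 57 ± 18.1 CPM there (log2 1.52, edgeR, adjusted p = 0.00272) and Myl4 at 12.2 ± 4.01 CPM (1.16, adjusted p = 0.0139). Of the 14 genes 3 rose and 2 fell in that comparison, where 15.8% and 11.9% of all genes did. Cdkn1c (p57), another inhibitor of the cell cycle, rose with treatment in both disease models, from 17 ± 6.04 to 46.5 ± 14.9 CPM (1.45 ± 0.28, edgeR, adjusted p = 0.00769) and from 17.3 ± 4 to 31.1 ± 1.29 CPM (0.84 ± 0.14, adjusted p = 0.00588), and was at 20.3 ± 4.82 and 21.6 ± 4.69 CPM in WT and treated WT mice. With only the compared groups fitted, the call in the Dnm2 cohort was lost (adjusted p = 0.0725). Proliferation markers were low, summing to 1.26 to 19.7 CPM over 5 genes in the Dnm2 cohort and 1.79 to 14.3 in the Bin1 cohort. All 4 tested rose in treated WT mice (median log2 1.85, sums of 7.39 to 19.7 against 1.26 to 4.6 CPM) and in treated Dnm2 S619L/+ against WT mice (1.78). In each of these comparisons 15.8% of all genes rose.

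Of 20 fusion genes 17 were tested. In Dnm2 S619L/+ mice 3 rose and 2 fell, where 21.9% of all genes were called, and in Bin1 mck-/- mice 1 rose, where 1.99% of all genes rose. Cav3 was the gene that rose in both (log2 1.01 ± 0.16, edgeR, adjusted p = 0.000626, and 0.63 ± 0.15, adjusted p = 0.0427, lost in 8 of 18 other fits). Under tamoxifen 8 rose and 0 fell in WT mice, and 6 rose and 1 fell in Dnm2 S619L/+ mice, against 15.8% and 5.22% of all genes that rose. In treated Bin1 mck-/- mice 0 of 17 passed by edgeR, with 0 at an unadjusted p under 0.05, where 3068 of all 14841 genes were. Adam12, a protease of fusing cells and of connective tissue, led the rise, from 0.821 to 1.11 CPM in WT to 15.7 to 37.0 in treated WT mice (log2 4.74 ± 0.61, edgeR, adjusted p = 0.000257) and from 0.816 to 1.11 to 2.16 to 32.6 CPM in Dnm2 S619L/+ mice (4.11 ± 0.61, adjusted p = 0.00246). Kirrel, a nephrin-like adhesion protein, went from 12.9 ± 2.22 to 43.4 ± 9.77 CPM in WT (1.74 ± 0.34, adjusted p = 0.00201) and from 10.9 ± 3.26 to 34.8 ± 16.9 CPM in Dnm2 S619L/+ mice (1.67 ± 0.34, adjusted p = 0.0101). Bone markers summed to 18.3 to 1850 CPM in these treated groups, and none of the 6 was at 0. In treated WT mice 2 of 5 fibro-adipogenic markers rose as well, Pdgfra (1.38 ± 0.29, edgeR, adjusted p = 0.0034) and Dcn (1.14 ± 0.25, adjusted p = 0.00427). The other 3 did not pass, and the median log2 of the 5 was 0.081. Dpp4, 1 of these 3, was at 1.97 ± 0.835 CPM there against 3.1 ± 0.17 in WT. Also higher were 4 of 5 markers of macrophages and leukocytes and 4 of 4 of proliferation, where 15.8% of all genes rose. The part of any of these was not tested. With only the compared groups fitted, the calls of Adam12 and Kirrel in Dnm2 S619L/+ mice were lost (adjusted p = 0.0656 and 0.0929). Neither Mymk nor Mymx passed the test between treated and placebo mice, in WT or in Dnm2 S619L/+ mice.

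**Figure D5:**
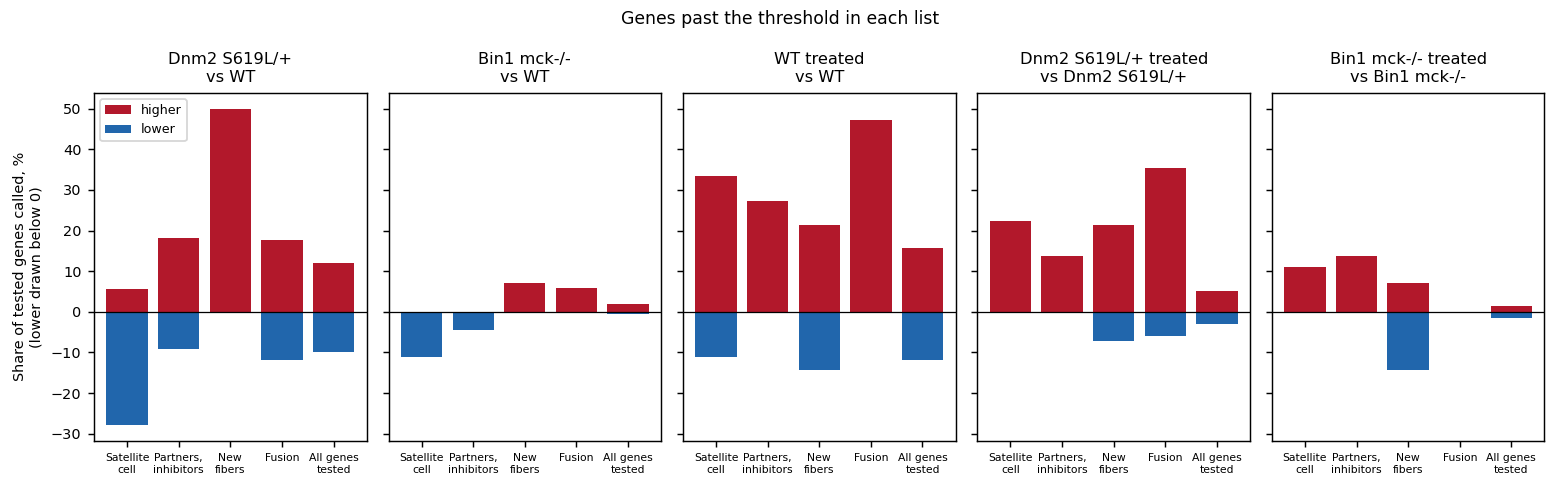
Share in percent of the tested genes of each list that passed the threshold, higher above 0 and lower below 0 (y axis), for 4 lists and all genes tested (x axis), 1 panel per comparison. The satellite cell list has its largest lower share in Dnm2 S619L/+ against WT mice, and the fusion list its largest higher share in treated against placebo WT mice.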

How the data were processed

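Gene counts of TA muscle came from strand-specific libraries of poly-A RNA. The authors deposited raw read counts per gene, 1 table per cohort, and the submitters' processing notes name bcl2fastq 2.20.0.422, cutadapt 1.10, Bowtie 1.2.2, STAR 2.5.3, HTSeq 0.6.1p1 and build mm39. In the Bin1 cohort 4 lines that name no gene, a median of 23.9% of the counts, were left out. Gene names came from GENCODE M21 for 52083 identifiers in each cohort.

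Each cohort was fitted with all its groups by edgeR 4.0.16 in R 4.3.3 (TMM, filterByExpr with a minimum count of 10, robust quasi-likelihood test, prior count of 2), with Benjamini-Hochberg adjustment over all genes tested and a threshold of 0.05. CPM used TMM library sizes. DESeq2 1.42.0, other filters and scalings, fits of the compared groups alone, leaving out each mouse and thinned libraries (added after seeing the data) were tried. Scripts were tested on simulated data. The smallest chi-square per gene between libraries of a group was 14.75, so none was a copy. The 8 genes, the lists and the naming rules were chosen with earlier results of these data known. Beside the 8, the text names at most 3 called genes a list, taken by smallest p, and the 3 genes most like each of the 8. Count ratios carry exact 95% intervals that cover counting error only. In the list of denervated fiber markers 1 gene is not reported here, and its counts and sums were taken without that gene.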

Additional observations from a re-analysis of the deposited data

Results flagged for a closer look

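In 6 of 56 sets of 1 gene in 1 group of 4 mice, 1 mouse stood apart by Dixon's test. For normally distributed values chance does so in about 1 of 20 sets. Low CPM values need not be normal, so that rate cannot be set against the 6 found. Treated Dnm2 S619L/+ mouse 1 was high in Myod1, at 34.56 CPM against 12 in the next mouse, and in Mymk, at 6.624 CPM against 2.192. Treated WT mouse 1 was low in Mymk, at 0.1408 CPM against 0.3452. Treated Bin1 mck-/- mouse 4 was low in Pax3, at 0.1827 CPM against 0.388. WT mouse 8 of the Bin1 cohort was high in Myf6, at 71.14 CPM against 60.37, and it alone of its group had reads on Mymx (0.06026 CPM, from 2 reads).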

How the results depend on the processing

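Pax7, Myog, Myf6 and Mymx kept their calls between Dnm2 S619L/+ and WT mice in every other fit that tested them. DESeq2 called 1 of the 8 genes in treated against placebo Dnm2 S619L/+ mice, 2 in treated against placebo Bin1 mck-/- mice and 1 in treated Bin1 mck-/- against WT mice, and it added Myf6 in Bin1 mck-/- and Mymk in treated Dnm2 S619L/+ against WT mice. With only the compared groups fitted, 2 were called between treated Dnm2 S619L/+ and treated WT mice, and with thinned libraries 1 in treated against placebo Bin1 mck-/- mice.

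Leaving out 1 mouse at a time gave 0 to 1 calls for treatment in WT, in Dnm2 S619L/+ and in Bin1 mck-/- mice, 3 to 5 between treated Dnm2 S619L/+ and WT mice (5 without WT mouse 4), 2 to 4 between treated Dnm2 S619L/+ and treated WT mice and 0 to 3 between Bin1 mck-/- and WT mice. Differences that did not pass the test changed sign on the log2 scale when a mouse was left out. These were Myf5 (-0.19 to 0.12) in Dnm2 S619L/+ against WT mice, Myf5 (-0.12 to 0.31) and Mymx (-0.088 to 0.30) for treatment in WT mice, Pax3 (-0.23 to 0.26) and Mymx (-0.23 to 0.95) for treatment in Dnm2 S619L/+ mice, Myod1 (-0.047 to 0.84) in treated Dnm2 S619L/+ against WT mice and Pax3 (-0.29 to 0.031) against treated WT mice. In the interaction these were Myod1 (-0.50 to 0.67), Myog (-0.11 to 0.36) and Mymx (-0.32 to 0.86). In the Bin1 cohort they were Pax3 (-0.79 to 0.18), Myf5 (-0.50 to 0.060) and Myod1 (-0.31 to 0.23) for disease, Pax3 (-0.77 to 0.14) and Myf6 (-0.16 to 0.12) for treatment, and Myf5 (-0.15 to 0.40) and Mymk (-0.092 to 0.55) for treated Bin1 mck-/- against WT mice. Thinning turned Mymx to -0.032 for treatment in WT mice and Myf5 to -0.068 in treated Bin1 mck-/- against WT mice. Within groups the likeness of Emid1 to Pax7 was -0.106 and that of Cidea to Mymk -0.017. The causes were not tested.

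Mouse numbers are shared between groups, but deviations of same-numbered mice correlated at -0.431 to 0.487, so the numbers were not taken to pair mice. With the replicate block and only the compared groups, 2 of the 8 genes (Myog and Myod1) and 152 of all genes were called for treatment in Bin1 mck-/- mice, against 0 and 122 with the same groups and no block and 0 and 464 with all groups, and Myf6 was at 0.018. In the Dnm2 cohort the block turned Myf5 to 0.0005 in Dnm2 S619L/+ against WT mice, and Myod1 to -0.046 and Myog to -0.11 in the interaction, and it called Mymk in treated Dnm2 S619L/+ against WT mice. Few reads on Mymx, Mymk and Pax3 limit what these libraries can show.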
